A study of Mus musculus with 6 samples.

Results

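Small nucleolar RNA (snoRNA) host transcripts are long RNAs whose introns carry snoRNAs. The 7 measured here, Gas5, Snhg1, Snhg3, Snhg5, Snhg6, Snhg8 and Snhg12, were chosen by name from 49415 named genes, and 8 rows of the deposited tables hold them, because Snhg12 has 2 rows. RNA was sequenced from blastocyst-derived mouse embryonic stem cells of strain C57BL/6J, all of genotype Mll1fl/fl; Cre-ER TM, that is, with floxed Mll1 (Kmt2a) alleles and a tamoxifen-inducible Cre that were carried by the controls too. One group received 1 µM 1α,25-dihydroxyvitamin D3 (VD3), the active form of vitamin D, together with 100 µM MM-401, which blocks the MLL1 histone methyltransferase, over 5 days. A second group received the same VD3 alone for 5 days, and the third was untreated, with no time given. Each group had 2 libraries, labelled as biological duplicates, but the tables hold 1 pooled column per group, which leaves the differences below without a replicate check or a p-value. No group received MM-401 alone, all cells grew on embryonic fibroblast feeders with leukemia inhibitory factor, and the labels name 15% fetal calf serum or 20% serum replacement without saying which group had which.

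Host transcripts are spliced, and each excised intron is trimmed back to the snoRNA it holds. C/D box snoRNAs guide 2′-O-methylation of ribosomal RNA and H/ACA box snoRNAs guide pseudouridylation, while a few take part in ribosomal RNA cleavage. The spliced exons carry no long conserved reading frame. In mammalian cells such RNAs are often translated briefly and removed by nonsense-mediated decay, and many start with a 5′ terminal oligopyrimidine tract, the element that ties ribosomal protein mRNAs to growth signalling. Gas5 was named for its accumulation in growth-arrested mouse fibroblasts.

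In GENCODE vM21 (GRCm38, the sequence of the authors' mm10 build), Gas5 is on chromosome 1 at 161034422 to 161038539 on the plus strand and holds 9 snoRNAs. Snhg1 (chromosome 19, 8723475 to 8726443, plus strand) holds 8, and Snhg12 (chromosome 4, 132308623 to 132311024, plus strand) holds 4. Snhg3 (chromosome 4, 132348014 to 132353686, minus strand) holds 2 and Snhg5 (chromosome 9, 88521050 to 88522929, minus strand) holds 2. Snhg6 (chromosome 1, 9941959 to 9944118, minus strand) holds Snord87, and Snhg8 (chromosome 3, 123507552 to 123508404, minus strand) holds Snora24. Of these 27 snoRNAs, 20 lie wholly outside the exons of every transcript not classed as a retained intron, and 23 are named in the same row of the tables as their host. Their lengths run over 60 to 205 bases with a median of 76.

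The sequences below, from the GENCODE transcripts, show both classes of snoRNA the hosts carry and how short they are, which bears on the lengths given further on. Capitals mark TGATGA, the core of box C, within the first 25 bases together with CTGA, box D, starting in the last 14 bases, or ACA starting in the last 8 bases, all read on the RNA strand. Of the 27 snoRNAs, 17 had the C and D letters, 5 had only the ACA letters and 5 (Gm22489, Snord78, Gm25894, Snord22 and Snora44) had neither in these windows. Snord50a and Snord50b, the pair inside Snhg5, are both 72 bases long and differ by the single substitution C50A, counted from 1 at the 5′ end of Snord50a.
Snord47 (host Gas5, chr1:161038082-161038158, plus strand): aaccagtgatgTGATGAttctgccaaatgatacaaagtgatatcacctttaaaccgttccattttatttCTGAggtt
Snord80 (host Gas5, chr1:161037601-161037681, plus strand): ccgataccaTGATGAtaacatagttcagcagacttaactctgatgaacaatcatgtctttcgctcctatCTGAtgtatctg
Gm25855 (host Snhg1, chr19:8723993-8724064, plus strand): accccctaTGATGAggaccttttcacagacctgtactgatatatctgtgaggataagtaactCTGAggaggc
Snord50a (host Snhg5, chr9:88521529-88521600, minus strand): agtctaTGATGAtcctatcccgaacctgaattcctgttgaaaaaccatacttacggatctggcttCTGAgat
Snord50b (host Snhg5, chr9:88521797-88521868, minus strand): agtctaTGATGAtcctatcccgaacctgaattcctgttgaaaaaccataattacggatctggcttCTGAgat
Snord87 (host Snhg6, chr1:9942463-9942549, minus strand): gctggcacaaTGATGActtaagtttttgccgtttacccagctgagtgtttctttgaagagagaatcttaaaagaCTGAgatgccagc
Snord99 (host Snhg12, chr4:132310691-132310764, plus strand): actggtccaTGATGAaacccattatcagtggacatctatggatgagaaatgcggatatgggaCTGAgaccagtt
Snora24 (host Snhg8, chr3:123507937-123508066, minus strand): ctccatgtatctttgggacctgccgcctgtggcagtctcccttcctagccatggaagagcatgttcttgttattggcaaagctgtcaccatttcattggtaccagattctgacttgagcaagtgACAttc
Snora73b (host Snhg3, chr4:132352322-132352526, minus strand): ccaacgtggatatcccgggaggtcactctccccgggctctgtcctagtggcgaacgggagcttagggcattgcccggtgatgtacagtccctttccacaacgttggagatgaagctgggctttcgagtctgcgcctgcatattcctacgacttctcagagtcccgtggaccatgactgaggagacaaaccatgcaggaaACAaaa
Snora61 (host Snhg12, chr4:132310240-132310369, plus strand): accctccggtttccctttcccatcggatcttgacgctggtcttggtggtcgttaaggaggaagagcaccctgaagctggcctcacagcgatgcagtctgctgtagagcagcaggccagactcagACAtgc

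The authors' estimated counts come from a model that assigns fragments to loci. They are given here with 1 standard deviation (SD), the square root of the variance the authors deposited, which describes their model of a pool and not a spread over libraries. The counts of the 3 pools lie on a common scale: over 9780 genes with more than 500 counts in every pool, the median log2 gap between the FPKM ratio and the count ratio was at most 3.19e-07 in the 3 comparisons. The totals, 73292511 (VD3 plus MM-401), 73383193 (VD3) and 62081406 (untreated), are therefore not read as sequencing depth. Embryonic stem cell identity was checked with 10 pluripotency markers, which summed to 5869, 4755 and 3046 FPKM in the VD3 plus MM-401, VD3 and untreated pools, the lowest single value being 26.4 FPKM. The 16 fibroblast (feeder cell) markers summed to 23.8 FPKM with VD3 plus MM-401, 30.7 with VD3 and 22.0 in untreated cells, and 11, 10 and 10 of them were under 1 FPKM in the same pools. The part of these markers in the results below was not tested. In pooled RNA, fewer cells that express a gene and less of its RNA per cell cannot be told apart.

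Host transcripts other than Snhg3 had about 2 times the count with VD3 plus MM-401 that they had with VD3 alone. Summed over the 6 hosts other than Snhg3, whose row also names a protein-coding gene, the counts were 49081 with VD3 plus MM-401, 22282 with VD3 and 31281 in untreated cells. These made up 0.0670% of all counts with VD3 plus MM-401, 0.0304% with VD3 and 0.0504% in untreated cells. The 6 ratios of VD3 plus MM-401 over VD3 ran over 1.86 to 2.52, while the median of 10718 genes compared differed by 0.02 on the log2 scale. Each of the 6 log2 differences was larger than those of 95.9% to 98.7% of these genes.

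Among the hosts of C/D box snoRNAs, Gas5 had an estimated count of 15797 ± 2979.9 with VD3 plus MM-401, 7168 ± 1261 with VD3 and 13328 ± 2484 in untreated cells (SD of the authors' model). The VD3 pool was the low one, and its interval of 2 SD on either side lay apart from that of VD3 plus MM-401 but overlapped that of untreated cells. Snhg1, a transcript that hosts a row of C/D snoRNAs and Snord22, a snoRNA that acts in ribosomal RNA cleavage, had 13938 ± 2619 counts with VD3 plus MM-401, 5528 ± 918 with VD3 and 7525 ± 1253 in untreated cells. Here too only VD3 plus MM-401 and VD3 had intervals apart, at a count ratio of 2.52. Snhg5, the host of Snord50a and Snord50b, had 7132 ± 1334 counts with VD3 plus MM-401, 3376 ± 569 with VD3 and 4456 ± 743 in untreated cells. Its ratio of VD3 plus MM-401 over VD3 was 2.11, with overlapping intervals. Snhg6, the host of Snord87, had 5264 ± 1082 counts with VD3 plus MM-401, 2616 ± 471 with VD3 and 2689 ± 497 in untreated cells. The VD3 and untreated pools were close together for Snhg6, and VD3 plus MM-401 stood 2.01-fold above VD3.

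Among the hosts of H/ACA box snoRNAs, Snhg8 had 2078 ± 383 counts with VD3 plus MM-401, 1118 ± 202 with VD3 and 1063 ± 195 in untreated cells. It followed the pattern of Snhg6, with VD3 plus MM-401 above both other pools and overlapping intervals. The row of Snhg3 had 28100 ± 4969.9 counts with VD3 plus MM-401, 28746 ± 4879 with VD3 and 17384 ± 3035 in untreated cells. This row was the exception: both treated pools were high and nearly equal, at a ratio of 0.978, and the untreated pool was low. The row also names Rcc1, the nuclear exchange factor of the Ran GTPase, which shares the locus and strand with Snhg3, so how much of the count belongs to either gene cannot be told apart. Snora73b, a snoRNA inside Snhg3 that acts in ribosomal RNA processing, has a row of its own, with 278, 237 and 193 counts in the VD3 plus MM-401, VD3 and untreated pools. Snhg12, which hosts snoRNAs of both classes, had 4872 counts with VD3 plus MM-401, 2476 with VD3 and 2219.9 in untreated cells over its 2 rows. The row that also names Snora44, Snora61 and Snord99 had 3981 ± 888 with VD3 plus MM-401, 1903 ± 370 with VD3 and 1622 ± 331 in untreated cells, and the row that names Snhg12 alone had 891 ± 530 with VD3 plus MM-401, 573 ± 208 with VD3 and 597 ± 202 in untreated cells. Both rows were highest with VD3 plus MM-401, and the second had an SD of 59.5% of its count there, so its pools are not distinguished.

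**Figure D1:**
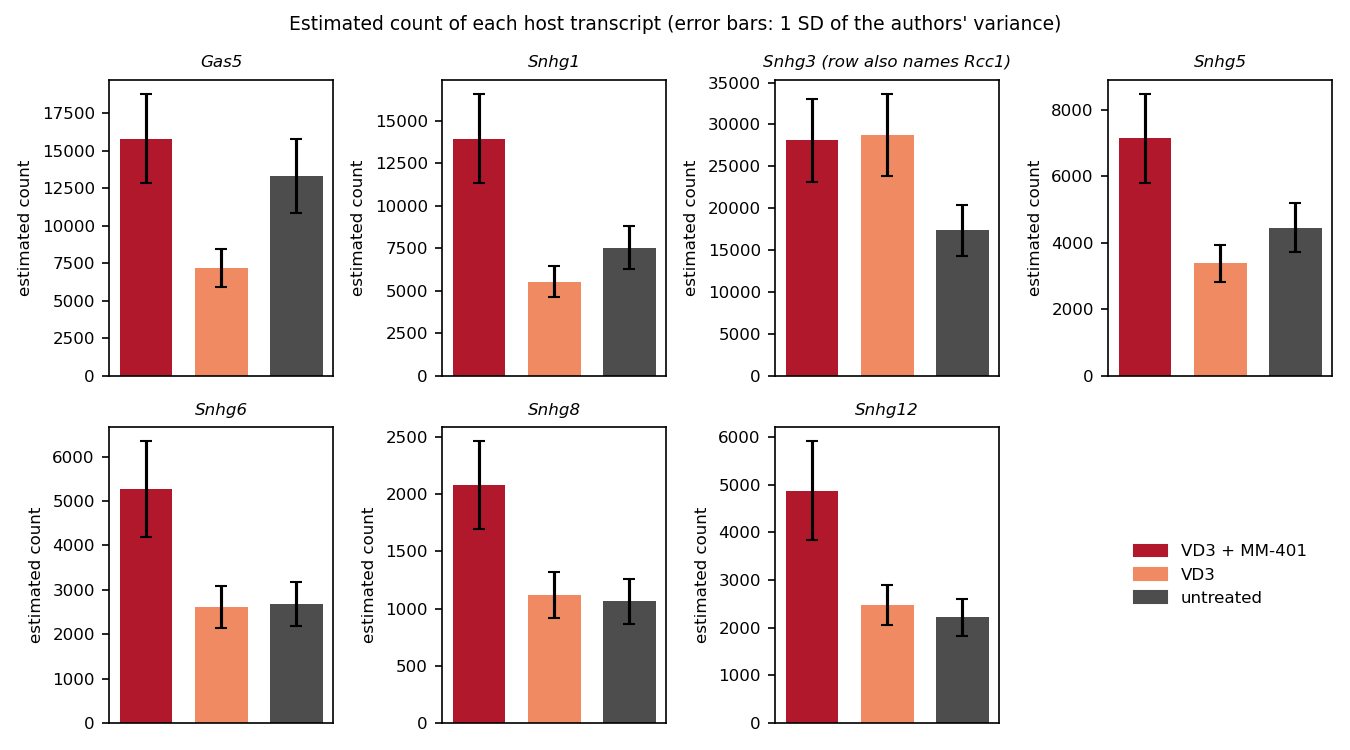
Estimated counts (y axis) of the 7 host transcripts in the VD3 plus MM-401, VD3 and untreated pools, with error bars of 1 SD from the authors' count variance and no replicate spread. VD3 plus MM-401 is the highest bar for every transcript except Snhg3, where VD3 (28746) and VD3 plus MM-401 (28100) are nearly level.

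Between VD3 plus MM-401 and VD3, 6 of 7 hosts were higher with both agents by count, and 4 of 7 (Gas5, Snhg1, Snhg5 and Snhg6) were at least 2-fold higher, against 2.86% of all genes compared. Counting only 2-fold differences whose intervals of 2 SD did not overlap, Gas5 and Snhg1, 2 of 7, were called higher, against 0.606% of genes, and none lower, against 0.103%. The median log2 difference of the 7 was 1.01 by count and 0.80 by FPKM, beside 0.02 for all genes on either scale. At least 2-fold higher by FPKM were 2 of 7, Snhg5 (log2 difference 1.44) and Snhg12 (1.14), where the 95th percentile of all genes was 0.97. Gas5 (0.77), Snhg1 (0.80) and Snhg6 (0.98) fell short of 2-fold by FPKM, so the hosts past 2-fold depend on the unit. By the rule applied to the FPKM, a 2-fold difference with the authors' intervals apart among genes of at least 5 FPKM in the higher pool, 0 of 7 hosts were called, against 0.83% of genes higher and 0.541% lower. Transcript length moved with the difference: genes within 1.25-fold of the length of a host had median log2 differences by count between 0.13 (at Snhg12) and 0.33 (at Snhg1). After adjustment for GC content and transcript length over 9575 genes, the count differences of the 6 hosts other than Snhg3 were 0.51 (Snhg6) to 1.01 (Gas5), and that of Snhg3 was -0.49. In every comparison the adjustment gave the Snhg3 row the length and GC content of an Snhg3 transcript. That row also names Rcc1, so these may not be the properties of the RNA counted.

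Against untreated cells, 7 of 7 hosts were higher by count with VD3 plus MM-401, and 6 of 7 stood above the median gene, which itself differed by 0.27. The ratios ran over 1.19 for Gas5 to 2.19 for Snhg12, which was the 1 host past 2-fold, against 11.3% of genes higher by that much. The median log2 difference of the hosts was 0.89 by count and 0.97 by FPKM. None of the 7 was called on either scale, against 5.22% of genes called higher and 4.09% lower by count, and 4.26% and 2.69% by FPKM. Genes within 1.25-fold of the length of a host had median count differences of 0.65 to 0.87. Gas5 (0.25), Snhg5 (0.68) and Snhg3 (0.69) stood below the medians for their own lengths (0.84, 0.84 and 0.78), and the other hosts stood above theirs. After the adjustment the hosts had a median of 0.40 by count, with Gas5 at -0.62. The part of transcript length in these differences was not tested.

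With VD3 against untreated cells, the hosts other than Snhg3 stood below the median gene, which was 0.38 higher on the log2 count scale. Gas5 was the lowest, at a log2 difference of -0.89 by count and -0.99 by FPKM, below all but 10.2% of 10910 genes. Snhg1 was at -0.44, Snhg5 at -0.40 and Snhg6 at -0.04, while Snhg8 was at 0.07, Snhg12 at 0.16 and Snhg3, with Rcc1 in its row, at 0.73 by count. By count and by FPKM 3 of 7 were above 0, and relative to the median gene 1 of 7 was. No host was called on either scale, against 0.999% of genes called higher and 6.99% lower by count, and 0.926% and 4.22% by FPKM. Genes of similar length had median count differences of 0.53 to 0.58 here, and the 6 hosts other than Snhg3 stood below those medians. After the adjustment 2 of 7 were above 0 by count, Snhg3 at 0.86 and Snhg6 at 0.28, and the lowest was Gas5 at -1.64. By FPKM Snhg1, at 0.10, was also above 0 after it. The VD3 pool enters this comparison and the one with VD3 plus MM-401 against VD3, so a low value in it lowers the first and raises the second.

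**Figure D2:**
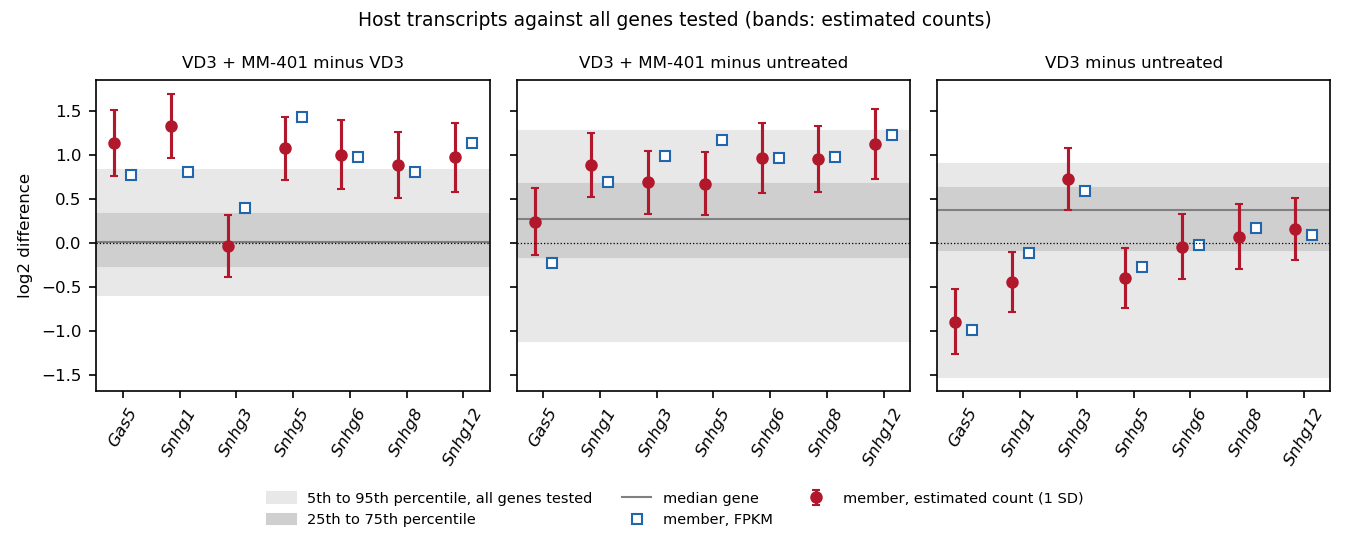
Log2 differences (y axis) of the 7 host transcripts in 3 comparisons: filled circles with bars of 1 SD are estimated counts, open squares are FPKM, and the grey bands and line give the percentiles and median of all genes compared by count. In VD3 plus MM-401 minus VD3, 6 circles lie above the 95th percentile of 0.83 and Snhg3 lies at -0.03.

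FPKM divides a count by a modelled transcript length, and for some hosts, Gas5 among them, the differences by FPKM and by count were unlike. Gas5 stood at 1716 FPKM with VD3 plus MM-401, 1006 with VD3 and 2003 in untreated cells, so by FPKM the untreated pool was the high one, while by count it was VD3 plus MM-401. The authors' intervals for Gas5 began at 0 in every pool and reached 6013 FPKM with VD3 plus MM-401, 3258 with VD3 and 6861 in untreated cells. Snhg1 stood at 674 FPKM with VD3 plus MM-401, 385 with VD3 and 416 in untreated cells with intervals that also began at 0. Snhg5 stood at 266 FPKM with VD3 plus MM-401 (interval 122 to 411), 97.9 with VD3 (59.5 to 136) and 118 in untreated cells (71.1 to 165). Its intervals in the treated pools overlapped only between 122 and 136 FPKM, at an FPKM ratio of 2.72. Snhg6 stood at 299 (169 to 429) FPKM with VD3 plus MM-401, 151 (94.95 to 207) with VD3 and 153 (93.7 to 212) in untreated cells, and Snhg8 at 98.7 (60.2 to 137) with VD3 plus MM-401, 56.1 (35.2 to 77.0) with VD3 and 49.8 (30.8 to 68.7) in untreated cells. Both showed the same order of pools by FPKM as by count. The Snhg3 row stood at 738 FPKM with VD3 plus MM-401, 559.6 with VD3 and 371 in untreated cells, and Snhg12 at 187 with VD3 plus MM-401, 84.2 with VD3 and 79.2 in untreated cells over its rows.

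**Figure D3:**
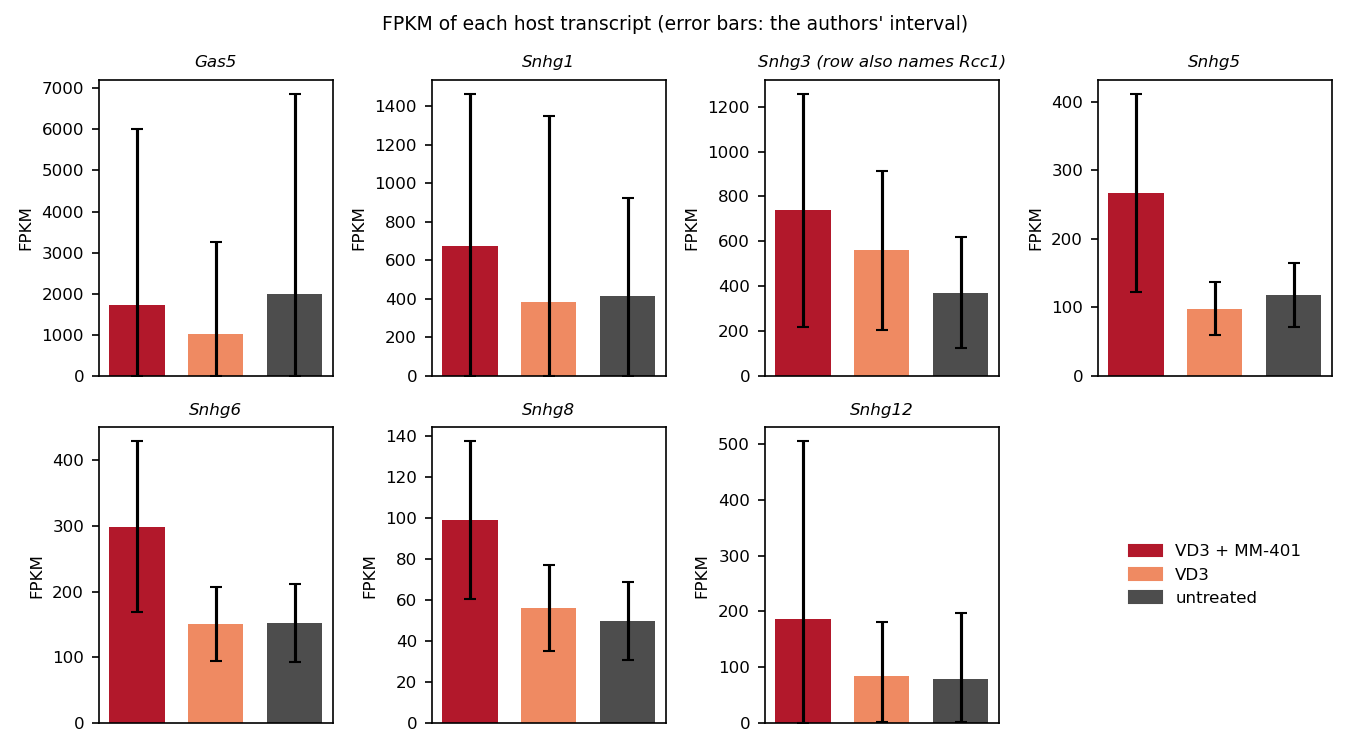
FPKM (y axis) of the 7 host transcripts in the VD3 plus MM-401, VD3 and untreated pools, with the authors' confidence interval, whose level is not given, as error bars. The intervals of Gas5 and Snhg1 reach 0 in all 3 pools, and for Snhg5, Snhg6 and Snhg8 VD3 plus MM-401 is the highest bar with intervals that overlap those of the other pools.

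Ordered by FPKM in untreated cells, the levels ran Gas5, Snhg1, Snhg3, Snhg6, Snhg5, Snhg12 and Snhg8, and the highest FPKM was 17.4 times the lowest with VD3 plus MM-401, 17.9 times with VD3 and 40.2 times in untreated cells. By count the Snhg3 row came first in every pool and Snhg8 last, 13.5 times apart with VD3 plus MM-401, 25.7 with VD3 and 16.4 in untreated cells. The order by FPKM differed between pools only in that Snhg3 stood before Snhg1 in both treated pools. Every neighbour in the orders by FPKM had an interval that overlapped the one above it, so no neighbouring levels are distinguished.

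The length behind an FPKM can be recovered from the ratio of count to FPKM, scaled so that 123 single-transcript genes of at least 4000 bases have their annotated length. On this scale 110 single-transcript genes of 400 to 600 bases had a median of 317 bases in untreated cells (5th to 95th percentile 214 to 609), below their annotated length. The Gas5 row stood at 136 bases with VD3 plus MM-401, 106 with VD3 and 98.6 in untreated cells. These lay under the 5th percentile of the short genes in the same pools (213, 214 and 214). The shortest annotated Gas5 transcript has 346 bases and its snoRNAs have at most 84. Because the scale runs below annotated length for short genes, the Gas5 values cannot be set directly against either. Which RNAs the Gas5 row holds was not tested. Snhg1, with 18 annotated transcripts of 312 to 2728 bases, stood at 306 bases with VD3 plus MM-401, 212 with VD3 and 268 in untreated cells. Snhg5 stood at 397 bases with VD3 plus MM-401, 511 with VD3 and 559.6 in untreated cells. Snhg6 (261 with VD3 plus MM-401, 257 with VD3 and 261 in untreated cells) and Snhg8 (312 with VD3 plus MM-401, 295 with VD3 and 316 in untreated cells), whose rows name no snoRNA, kept nearly the same length in every pool. The Snhg12 row with 3 snoRNAs stood at 326 bases with VD3 plus MM-401, 351 with VD3 and 320 in untreated cells, and the row that names Snhg12 alone at 2109.8 with VD3 plus MM-401, 2121 with VD3 and 2113 in untreated cells, above its longest annotated transcript of 1538 bases. What that second row holds was not tested.

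A change of this length between pools separates the fold by FPKM from the fold by count. For VD3 plus MM-401 over VD3, the ratio was 1.71 by FPKM and 2.20 by count for Gas5, and 1.75 and 2.52 for Snhg1. It was 2.72 and 2.11 for Snhg5, and 1.32 and 0.978 for the Snhg3 row. In these 4 of 7 hosts the units differed by more than 1.25-fold, against 18.8% of genes with more than 500 counts in every pool. All 4 share their row with snoRNAs, as does Snhg12, which did not pass the gap. Against untreated cells, 2 of 7 hosts passed that gap with VD3 plus MM-401 (20.3% of genes) and 1 of 7 with VD3 (8.23%).

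**Figure D4:**
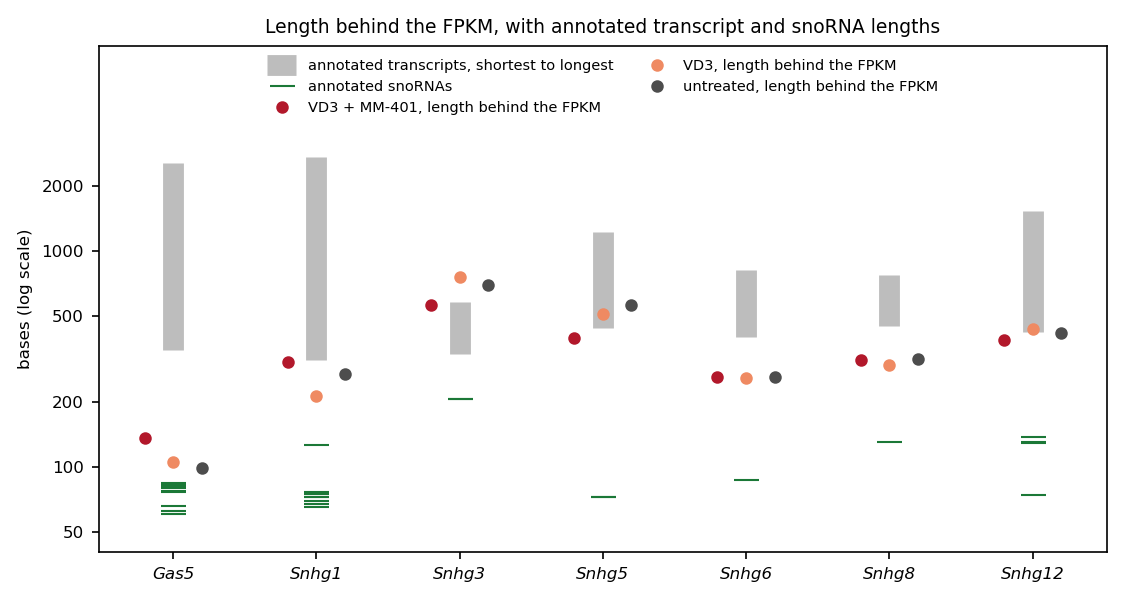
Length in bases (y axis, log scale) behind the FPKM of each host transcript in the 3 pools (circles; Snhg12 is the sum of its rows), beside the range of its annotated transcripts (grey bars) and its annotated snoRNAs (green lines). The Gas5 circles, at 98.6 to 136 bases, are drawn between the snoRNAs and the shortest transcript of 346 bases. Short genes fall below their annotated length on this scale, so circles and annotated lengths are not directly comparable.

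Where strand is not used, fragments of overlapping genes cannot be told apart from those of a host, and the sources used here do not say that strand was used. Zbtb37 overlaps Gas5 from the other strand and had 504, 521 and 2159 counts in the VD3 plus MM-401, VD3 and untreated pools. By FPKM it stood at 2.80 with VD3 plus MM-401, 1.96 with VD3 and 3.08 in untreated cells, so its count was low in both treated pools while its FPKM, like the Gas5 count, was lowest with VD3. Mcmdc2, which overlaps Snhg6 from the other strand, had 646 counts with VD3 plus MM-401, 270 with VD3 and 530 in untreated cells, highest with VD3 plus MM-401 and lowest with VD3. Gm17300 overlaps Snhg3 from the other strand and had 1458 counts with VD3 plus MM-401, 1236 with VD3 and 1124 in untreated cells. The part of these genes in the host values was not tested.

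The start sites of the hosts are shown because starts of such hosts are known for pyrimidine tracts. RefSeq (GRCm38.p6) gives 7 starts for 6 of the 7 hosts. Each sequence holds 40 bases before the annotated start and 40 from it onward. Capitals mark TATA and its repeats in the 40 bases before the start, a motif that reads the same on both strands, and, at the start, a C followed by at least 4 pyrimidines (C or T) on the gene's strand that begins within 5 bases of it. The 2 motifs do not overlap in these windows.
Gas5 upstream start (chr1:161034561-161034640, plus strand): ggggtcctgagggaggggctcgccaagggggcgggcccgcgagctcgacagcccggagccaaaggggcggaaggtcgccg
Gas5 downstream start (chr1:161035126-161035205, plus strand): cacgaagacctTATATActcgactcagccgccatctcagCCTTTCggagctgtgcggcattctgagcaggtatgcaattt
Snhg1 (chr19:8723447-8723526, plus strand): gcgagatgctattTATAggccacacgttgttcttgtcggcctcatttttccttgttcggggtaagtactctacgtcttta
Snhg3 (chr4:132353647-132353726, minus strand): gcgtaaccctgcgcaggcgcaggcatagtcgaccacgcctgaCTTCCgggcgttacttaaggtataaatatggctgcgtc
Snhg5 (chr9:88522858-88522937, minus strand): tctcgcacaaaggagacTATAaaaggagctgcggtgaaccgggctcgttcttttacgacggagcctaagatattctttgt
Snhg8 (chr3:123508297-123508376, minus strand): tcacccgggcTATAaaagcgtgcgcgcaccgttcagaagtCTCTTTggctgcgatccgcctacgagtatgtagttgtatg
Snhg12 (chr4:132308638-132308717, plus strand): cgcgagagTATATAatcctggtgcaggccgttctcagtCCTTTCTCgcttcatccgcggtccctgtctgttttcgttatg

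A C at the annotated start itself, followed by at least 4 pyrimidines, was found at 2 of the 7 starts, the downstream start of Gas5, whose marked tract begins 1 base earlier, and that of Snhg8. The same held for 2.51% of 32851 promoters in the table. A tract beginning within 5 bases was found at 4 of 7, adding Snhg12 and Snhg3, against 18.3%. TATA lay in the 40 bases before 5 of the 7 starts, against 7.63% of promoters. The Snhg3 start and the upstream Gas5 start did not hold it in this window. These matches describe letters and annotated starts, and no factor was measured.

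Other long noncoding hosts were compared from a list of 13, of which 11 are in the tables. By FPKM, 4 of the 10 with at least 5 FPKM were called higher (4.26% of all genes) and 0 lower (2.69%) with VD3 plus MM-401 against untreated cells, with a median log2 FPKM difference of 1.06. Snhg20 stood at 209.7, 79.3 and 35.4 FPKM and Snhg15, the host of Snora9, at 196, 99.9 and 50.4, in the VD3 plus MM-401, VD3 and untreated pools. Dancr, the host of Snora26, had 1924 counts with VD3 plus MM-401, 949.7 with VD3 and 906 in untreated cells, and Epb41l4aos had 3298 with VD3 plus MM-401, 1717 with VD3 and 1192 in untreated cells. By count the calls with VD3 plus MM-401 against untreated cells were 3 higher (5.22% of all genes) and 1 lower (4.09%), the row of Snhg4. Snhg20, Snhg15, Dancr and Epb41l4aos had a count ratio of VD3 plus MM-401 over VD3 between 1.63 and 2.03, and none was called in that comparison (0.83% of all genes higher by FPKM and 0.606% by count). The rest of the list ranged more widely. Snhg17 stood at 0.911, Snhg18 at 1.02, Snhg14 at 1.07, Snhg7 at 1.49, Snhg4 at 1.54 and Snhg11 at 1.62. Snhg9 stood at 6.60, on only 74.2 counts with VD3 plus MM-401 and 11.2 with VD3. The row of Snhg4, which also names the nuclear matrix gene Matr3, had 11788 counts with VD3 plus MM-401, 7675 with VD3 and 33427 in untreated cells and was the 1 called lower with VD3 against untreated cells, by FPKM (4.22% of all genes) and by count (6.99%). Snhg14, summed over rows that between them also name Snrpn and Snurf, had 10369 counts with VD3 plus MM-401, 9653 with VD3 and 8575 in untreated cells and was not called. The median of the list was 0.79 with VD3 plus MM-401 against VD3 and 0.26 with VD3 against untreated cells by FPKM.

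The proteins that bind snoRNAs were examined with 8 core genes. Against untreated cells, 2 of 8 were called higher by FPKM with VD3 plus MM-401 (4.26% of all genes) and 0 lower (2.69%): Gar1, an H/ACA core protein, at 552, 417 and 233 FPKM in the VD3 plus MM-401, VD3 and untreated pools, and Snu13, a C/D core protein, at 127, 98.0 and 59.9 FPKM in the same pools. None of the 8 was called in the other comparisons. Of all genes, 0.926% were called higher and 4.22% lower by FPKM with VD3 against untreated cells. With VD3 plus MM-401 against VD3 these shares were 0.83% and 0.541%. Nop56 and Nop58, partners in the C/D core, differed in direction between VD3 and untreated cells without a call, with 23942, 29009 and 20364 counts for Nop56 and 28856, 22494 and 34754 for Nop58 in the VD3 plus MM-401, VD3 and untreated pools, both in rows that also name snoRNAs. The median of the 8 with VD3 plus MM-401 against VD3 was 0.39 by FPKM and 0.25 by count. Of the 12 assembly factors, such as the ATPase Ruvbl2 (1832 FPKM with VD3 plus MM-401, 1269 with VD3 and 898 in untreated cells) and the chaperone Nolc1 (209 with VD3 plus MM-401, 247 with VD3 and 173 in untreated cells), 0 were called in any comparison. The share of all genes called in 1 direction of a comparison ran over 0.541% to 4.26% by FPKM and 0.103% to 6.99% by count.

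The factors of nonsense-mediated decay, the pathway that removes many host transcripts, were a list of 15. In VD3 plus MM-401 against VD3, 0 of 15 were called, and their median log2 difference was 0.25 by FPKM and -0.12 by count. Of all genes, 0.83% were called higher and 0.541% lower by FPKM in that comparison, and 0.606% and 0.103% by count. Against untreated cells, Magoh, a core of the exon junction complex, stood at 672 FPKM with VD3 plus MM-401, 411 with VD3 and 262 in untreated cells, and Upf3a stood at 35.6, 29.7 and 17.3 FPKM in those pools. Both were called higher with VD3 plus MM-401 by FPKM, 2 of 15 against 4.26% of all genes. By count Magoh was called and Upf3a was not, and in all 2 of 15 were called higher and 1 lower, against 5.22% and 4.09% of all genes. Upf2, which bridges the decay factors, stood at 7.87 FPKM with VD3 plus MM-401, 4.61 with VD3 and 20.3 in untreated cells and was called lower with VD3 by FPKM, 1 of 15 against 4.22% of all genes. By count 2 of 15, Upf2 among them, were called lower with VD3 against untreated cells, against 6.99% of all genes. Of 7 stress genes whose RNAs are known decay targets, 1 was called higher by FPKM (4.26% of all genes) and 2 by count (5.22%) with VD3 plus MM-401 against untreated cells. The 1 called by FPKM was Trib3, at 100.1 FPKM with VD3 plus MM-401, 89.9 with VD3 and 46.4 in untreated cells. Gadd45a, a growth arrest gene, had 12745, 8253 and 6806 counts in the VD3 plus MM-401, VD3 and untreated pools, and Atf4, a stress transcription factor gene, had 81701, 79090 and 51211, neither being called.

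Regulators of mRNAs with oligopyrimidine tracts were a list of 12, of which 1 was called by FPKM, Larp4, which encodes an RNA-binding protein, at 12.5, 7.34 and 28.1 FPKM in the VD3 plus MM-401, VD3 and untreated pools, lower with VD3 against untreated cells (4.22% of all genes). By count 2 of the 12, Larp4 among them, were called lower in that comparison (6.99% of all genes). Eif4ebp1, a translation repressor under growth signalling, stood at 1123 FPKM with VD3 plus MM-401, 1026 with VD3 and 735 in untreated cells. Of 14 genes of lariat debranching and exosome trimming in the tables, the steps that free an intronic snoRNA, 1 was called by FPKM, Exosc5, at 157 FPKM with VD3 plus MM-401, 137 with VD3 and 73.0 in untreated cells, higher with VD3 plus MM-401 against untreated cells (4.26% of all genes) and not called by count. Exosc8, another exosome subunit, had 13123 counts with VD3 plus MM-401, 6475 with VD3 and 5702 in untreated cells, a ratio of 2.03 for VD3 plus MM-401 over VD3, and was not called.

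The protein-coding genes nearest to the hosts were ranked by their 2 log2 FPKM differences from untreated cells, as the distance to the hosts' median pair of -0.02 (VD3) and 0.97 (VD3 plus MM-401). Among 7950 genes the nearest were Nol7 (distance 0.06), Fubp3 (0.06), Mfap1b (0.07), Dcun1d5 (0.08) and Rsrp1 (0.08), and 6 genes lay within 0.1. Nol7, a nucleolar protein gene, stood at 335, 158 and 164 FPKM in the VD3 plus MM-401, VD3 and untreated pools, and Rsrp1 at 278, 132 and 133 in the same pools. With only 2 differences behind it, this likeness is a weak description.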

How the data were processed

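TopHat2 2.1.1, Cufflinks 2.2.1 and SAMtools 1.5 are named, beside mouse build mm10, in the submitters' processing notes, without their order or settings. Libraries followed the TruSeq protocol, per the labels. The authors deposited FPKM with lower and upper bounds for 62490 loci, and estimated counts with their variance, as 1 pooled column per group. The untreated and VD3 plus MM-401 columns were matched to their groups by the part of the name shared with those titles only. If those names mean something else, the comparisons would not hold.

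The 14 loci without a valid status and the 11771 unnamed loci were left out, and loci of the same name were summed, bounds and variances included. Differences are log2 ratios of FPKM + 1, or of counts as deposited + 10, and the count scale was chosen after the tables were seen. Genes of at least 5 FPKM in the higher pool were compared, and a gene was called where the difference was at least 1 (2-fold) and the intervals (the authors' bounds, or 2 SD of the count) did not overlap. The planned test across libraries could not be made on pooled columns. The adjustment is the residual of a quadratic fit on GC content and log2 length of the longest transcript not classed as a retained intron, centred. Annotation is GENCODE vM21, coordinates counted from 1. The host transcripts, the gene lists and the rule for named genes (in each list and comparison the 2 largest called differences each way, otherwise the 2 genes highest in FPKM) were chosen with earlier results of these data known. Dancr, Epb41l4aos and the rest of their list were also named, after their values were seen. Python 3.11.15 with pandas 2.3.3 and numpy 2.4.6 was used, and calls and adjustment were tested on simulated data.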

Additional observations from a re-analysis of the deposited data

How the results depend on the processing

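No paired analysis was possible because the tables hold 1 pooled column per group, and for the same reason neither the replicate block nor leaving out a library was run. By FPKM 0 hosts were called in every comparison with a pseudocount of 0.1 or 10, no filter, centring on the median gene, only the larger row of Snhg12, adjustment for GC content and length, or Snhg3 left out. A call needs the authors' intervals apart, and 0 of 7 hosts had them apart in any comparison. Apart from the choice of Snhg12 row, these settings leave the intervals unchanged. The 0 calls by FPKM were therefore fixed beforehand and do not measure robustness. With counts, the number called with VD3 plus MM-401 against VD3 was 2 as deposited, 2 when scaled by total count and 1 (Gas5) after adjustment, and with VD3 against untreated cells it was 1 (Gas5, lower) when scaled by total count. The cause of these differences was not tested. As deposited, 0.606% of all genes were called higher by count with VD3 plus MM-401 against VD3, and 6.99% lower with VD3 against untreated cells. Shares of all genes were not tallied for scaled or adjusted counts, so the calls under those settings cannot be set against them. The median difference of the hosts with VD3 against untreated cells was -0.02 as reported and -0.38 when centred on the median gene. With VD3 plus MM-401 against untreated cells it was 0.97 as reported and 0.40 by count after adjustment. Other medians moved by less than 1 SD of a host's log2 count ratio. Of 189 alternative values of single hosts, 156 stayed within that SD and 33 moved further. Scaling counts by their total in place of as deposited shifts comparisons with untreated cells by 0.24. Over all genes, calls higher and lower by FPKM and by count numbered 101 and 460 against 109 and 763 with VD3 against untreated cells, 467 and 295 against 573 and 449 with VD3 plus MM-401 against untreated cells, and 89 and 58 against 65 and 11 with VD3 plus MM-401 against VD3.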

Other observations

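Protein-coding snoRNA hosts include many ribosomal protein and translation genes. Of 42 such genes, 0 were called higher (0.83% of all genes) and 1 lower (0.541%) by FPKM with VD3 plus MM-401 against VD3. The 1 called lower was Rpl23a, whose counts are given below. By count 0 were called either way (0.606% and 0.103%). The median log2 difference was 0.40 by FPKM and 0.38 by count. Rcc1, whose row is that of Snhg3, is among the 42. Rps20, which encodes a protein of the small ribosomal subunit, stood at 1612 FPKM with VD3 plus MM-401, 856 with VD3 and 518 in untreated cells, and was called higher with VD3 plus MM-401 against untreated cells. In that comparison 2 of 42 were called higher and 2 lower by FPKM (4.26% and 2.69% of all genes). By count 6 were called higher and 1 lower (5.22% and 4.09%).

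For Rpl23a and Rps13, hosts of Snord42b and Snord14a, the units pointed in opposite directions. Rpl23a stood at 11.9, 57.7 and 59.8 FPKM in the VD3 plus MM-401, VD3 and untreated pools, and its counts were 279, 118 and 109. Rps13 stood at 5.16 FPKM with VD3 plus MM-401, 3.26 with VD3 and 19.3 in untreated cells with 699 counts with VD3 plus MM-401, 360 with VD3 and 299 in untreated cells. Both were called lower by FPKM with VD3 plus MM-401 against untreated cells while their counts were more than 2-fold higher.

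Rows that name a snoRNA beside another gene were compared across the tables where they had more than 500 counts in every pool. Outside the 7 hosts, 10 of 26 such rows without a protein-coding gene had a median log2 count difference of 0.10 with VD3 plus MM-401 against VD3 with 0 past 2-fold, and 55 of 61 rows with a protein-coding gene had 0.21 with 3 past 2-fold higher. The 5 host rows that name a snoRNA had a median of 1.08, with 4 past 2-fold. These 4 were the rows of Gas5, Snhg1 and Snhg5 and the larger row of Snhg12 (3981 counts with VD3 plus MM-401 and 1903 with VD3). The fifth was the Snhg3 row, which also names the protein-coding gene Rcc1, and the Snhg6 row names no snoRNA. Over all genes compared, 2.86% were at least 2-fold higher by count. Rows that name no snoRNA, such as those of Dancr, Epb41l4aos and Snhg20, are not in this comparison. The list of long noncoding hosts outside the 7 had a median log2 count difference of 0.70 with VD3 plus MM-401 against VD3.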
